A study of Mus musculus with 20 samples.

Results

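Glucose metabolism and insulin signalling were followed through 9 liver genes, Pck1, Fbp1, G6pc, Ppargc1a, Pklr, Slc2a2, Insr, Irs1 and Irs2, in STING knockout and wild-type mice after bile duct ligation or sham surgery. The 9 genes were taken by name from a table of 54532 gene rows, and each name matched 1 row. All 9 were among the 14059 genes tested, which reached at least 0.5 FPKM (fragments per kilobase of transcript and mapped library size) in at least 5 of the 20 libraries. Each of the 9 reached 0.5 FPKM in 20 of 20 libraries.

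The study sequenced polyadenylated RNA of whole liver, with 5 libraries in each of 4 groups. These were ligated STING knockout (BDL_KO), ligated wild type (BDL_Wt), sham-operated STING knockout (Sham_KO) and sham-operated wild type (Sham_Wt). Tying off the bile duct dams bile back into the liver, a surgical model of cholestasis, and here it had lasted 7 days. The series title asks how loss of STING, an adaptor of cytosolic DNA sensing, alters gene expression in cholestatic mice. Strain, age, sex, the allele, the cell types that lack STING, the feeding state and the hour of collection are not stated in the labels. Each library has a number of its own in its title, but no label calls the livers separate animals. The p-values therefore speak to the spread among these libraries, which may be partly technical. Every group held libraries with and without Y-linked transcripts, so no group came from a single animal. Libraries are called livers below without a label that makes each a separate animal.

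Between meals the liver releases glucose that it makes from lactate, glycerol and amino acids or from glycogen. Pck1 and Fbp1 carry out irreversible steps of this gluconeogenesis, G6pc makes the free glucose, and pyruvate kinase, encoded by Pklr in liver, drives the opposing pathway of glycolysis. Insulin, acting through its receptor and the substrates Irs1 and Irs2, restrains the gluconeogenic genes, whereas glucagon and fasting raise them with the help of the coactivator encoded by Ppargc1a.

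Recovered depth was 14.9 to 20.9 M fragments per library, which gave the 9 genes between 95 fragments (Irs1) and 65372 fragments (Pck1) in a library. Tmem173, the gene of STING, measured 0.638 to 2.57 FPKM in ligated knockout against 2.60 to 4.60 FPKM in ligated wild-type livers, and 0.588 to 1.06 FPKM in sham knockout against 0.843 to 2.34 FPKM in sham wild-type livers. It was lower in the knockout after ligation (-1.17 ± 0.24 log2 units, limma adjusted p = 0.00444) and did not pass after sham surgery (-0.80 ± 0.24, limma adjusted p = 0.0779). The sources used here do not say which part of it was deleted. The summed level of 15 hepatocyte markers ranged from 35548 to 69922 FPKM in ligated knockout, 27230 to 36793 in ligated wild-type, 54987 to 67871 in sham knockout and 50734 to 69070 in sham wild-type livers, and none of the 15 was at 0 in any library. Libraries BDL_KO_2359 and BDL_KO_2248 stood apart in their group, with a mean deviation of these markers from the group mean of 0.46 and 0.52 log2 units, against -0.45, -0.35 and -0.17 in BDL_KO_2365, BDL_KO_2370 and BDL_KO_2371. Summed cholangiocyte markers were 84.1 and 63.5 FPKM in these 2 libraries, against 337 to 565 FPKM in the other ligated knockout livers. Sham knockout livers had 26.7 to 33.1 FPKM. Summed macrophage and monocyte markers were 171 and 87.8 FPKM, against 334 to 453 FPKM, with 126 to 200 FPKM in sham knockout livers. Summed stellate cell and fibroblast markers were 29.3 and 20.7 FPKM, against 111 to 138 FPKM, with 34.0 to 50.5 FPKM in sham knockout livers. Y-linked transcripts were present in 2 ligated knockout, 3 ligated wild-type, 3 sham knockout and 2 sham wild-type libraries, a split the labels do not give. The pancreatic insulin genes Ins1 and Ins2, the fat gene Lep and the muscle genes Ckm and Myh4 were listed at 0 in 20 of 20 libraries. The pancreas marker Cela1 reached 9.86 FPKM and Cela2a 0.767 FPKM, whereas the pancreas markers Prss1, Pnlip and Cpa1 were at 0 in 19, 19 and 17 libraries. The fat and muscle marker Slc2a4 reached 1.75 FPKM, whereas Adipoq and Acta1 of that list were at 0 in 18 libraries each. The kidney and intestine marker Fabp2 reached 69.7 FPKM. Of the same list, Umod, Slc34a1, Slc12a1 and Lct were at 0 in 17, 17, 19 and 14 libraries.

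**Figure D1:**
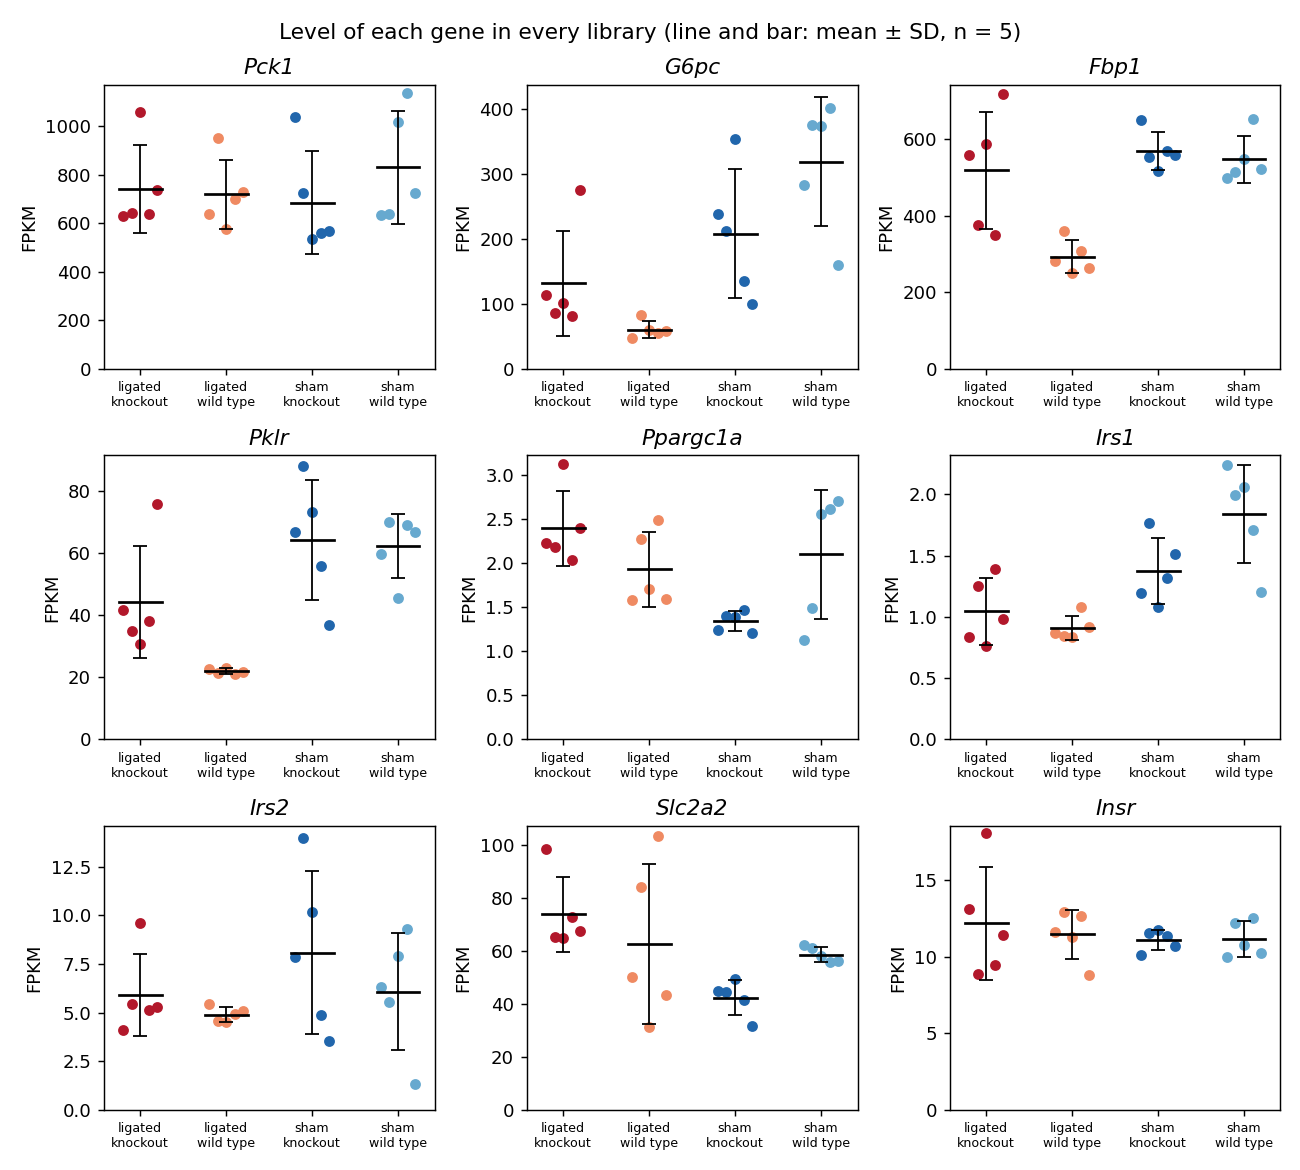
Level in FPKM (vertical axis, linear from 0) of the 9 genes in each of 20 livers, by group. Points are libraries, the thick line is the group mean and the bar is its SD (n = 5). The 5 ligated wild-type livers lie below all sham wild-type livers for G6pc, Fbp1, Pklr and Irs1, and Insr lies between 8.83 and 18.1 FPKM throughout.

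G6pc, the catalytic subunit of the phosphatase that frees glucose at the end of gluconeogenesis and glycogen breakdown, fell most among the 9 genes after ligation in wild type. G6pc (ENSMUSG00000078650.2, chromosome 11, 101367561 to 101377903, plus strand, GRCm38) measured 113, 86.2, 101, 81.3 and 275 FPKM in the ligated knockout livers. It measured 46.7, 82.7, 60.1, 54.5 and 57.8 FPKM in the ligated wild-type livers. In ligated wild type every liver was low and the values were close together, whereas in ligated knockout 4 livers were low and BDL_KO_2371 was far above them. G6pc measured 238, 212, 354, 136 and 99.6 FPKM in the sham knockout livers. It measured 283, 375, 374, 401 and 159.5 FPKM in the sham wild-type livers. The sham groups were widely spread and overlapped each other, and all sham wild-type livers lay above all ligated wild-type livers. Each fold change below is the group difference in log2(FPKM + 0.5) that limma estimated, with its standard error (5 livers per group), and p-values were adjusted over the 14059 genes (Benjamini-Hochberg) and called under 0.05. Ligated and sham livers differed in G6pc by -0.69 ± 0.35 log2 units in the knockout, which did not pass (limma adjusted p = 0.163), and by -2.34 ± 0.35 in wild type (limma adjusted p = 5.48e-05), where the mean fell to 0.197 of the sham level on this scale. Between genotypes G6pc differed by 0.98 ± 0.35 after ligation (limma adjusted p = 0.0864) and by -0.68 ± 0.35 after sham surgery (adjusted p = 0.332), and neither passed. Without BDL_KO_2371 the fall in the knockout was called, at -0.99 (limma adjusted p = 0.0297), and the difference between ligated genotypes was 0.67. The ligation difference in the knockout was -1.40 in libraries with Y-linked transcripts (limma adjusted p = 0.0265) and 0.18 in those without (adjusted p = 0.882). In wild type it was -2.40 in libraries with Y-linked transcripts (limma adjusted p = 0.00129) and -2.35 in those without (adjusted p = 0.0422). In whole liver, fewer cells of a type and less RNA per cell cannot be told apart, here and for every gene below.

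Fbp1, the bisphosphatase that commits carbon to glucose, fell with ligation in wild type and not in the knockout by this test. Fbp1 (ENSMUSG00000069805.10, chromosome 13, 62864753 to 62888282, minus strand) measured 558, 377, 588, 350.2 and 718 FPKM in the ligated knockout livers. It measured 282, 359, 251, 308 and 263 FPKM in the ligated wild-type livers. Within the ligated knockout group BDL_KO_2365 and BDL_KO_2370 were low and 3 livers were as high as sham livers, and BDL_KO_2370 lay below the highest ligated wild-type liver. Fbp1 measured 651, 554, 518, 568 and 559 FPKM in the sham knockout livers. It measured 498, 515, 548, 653 and 523 FPKM in the sham wild-type livers. The sham groups overlapped almost fully, and every ligated wild-type liver lay below every sham liver. The ligation difference was -0.19 ± 0.17 in the knockout (limma adjusted p = 0.456) and -0.91 ± 0.17 in wild type (limma adjusted p = 0.000427). Between genotypes the difference was 0.78 ± 0.17 after ligation, that is 1.72-fold higher in the knockout (limma adjusted p = 0.00755), and 0.06 ± 0.17 after sham surgery (limma adjusted p = 0.9). The higher level in ligated knockout livers did not pass with quantile normalization (0.47, limma adjusted p = 0.0609) or with only the ligated groups in the fit (limma adjusted p = 0.0932), and was 0.65 without BDL_KO_2359 and BDL_KO_2248 (limma adjusted p = 0.0475). It was 0.64 in libraries with Y-linked transcripts (limma adjusted p = 0.176) and 0.89 in those without (adjusted p = 0.409). The fall in wild type was -0.78 in libraries with Y-linked transcripts (limma adjusted p = 0.044) and -1.01 in those without (adjusted p = 0.0775).

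Pck1, the carboxykinase at the entry of gluconeogenesis and the most abundant of the 9 genes in each group, did not pass in any comparison. Pck1 (ENSMUSG00000027513.11, chromosome 2, 173153048 to 173159273, plus strand) measured 631, 641, 1058, 640.5 and 739.8 FPKM in the ligated knockout livers. It measured 637, 952, 579, 702 and 731 FPKM in the ligated wild-type livers. In each ligated group 1 liver stood above the others, and the groups overlapped. Pck1 measured 1038, 727, 535, 561 and 569 FPKM in the sham knockout livers. It measured 636, 638, 1017, 1138 and 725 FPKM in the sham wild-type livers. The sham groups also overlapped each other and the ligated groups. Ligation differences were 0.13 ± 0.22 in the knockout (95% interval -0.32 to 0.59) and -0.18 ± 0.22 in wild type (-0.64 to 0.27), with limma adjusted p = 0.701 and 0.551 in that order. Knockout differences were 0.03 ± 0.22 after ligation (-0.42 to 0.49) and -0.28 ± 0.22 after sham surgery (-0.74 to 0.17), with limma adjusted p = 0.944 and 0.549 in that order. Each of these intervals includes 0.

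Pck1 and G6pc, the first and last of these enzymes, were also set against each other within each liver. Per length, the level of Pck1 over that of G6pc in the same liver had a median of 7.44 (2.69 to 10.5) in ligated knockout, 12.6 (9.63 to 13.6) in ligated wild-type, 4.13 (1.51 to 5.72) in sham knockout and 2.72 (1.70 to 4.55) in sham wild-type livers. All 5 ligated wild-type ratios lay above all sham ratios, and the ligated knockout ratios overlapped the other groups. This ratio was formed after both genes had been described and was not tested.

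The windows around the start sites of G6pc, Fbp1 and Pklr, which fell together in ligated wild type, and of Pck1, which did not pass, are shown for comparison. They come from RefSeq on GRCm38.p6 and run from 250 bases before to 50 bases after a start site, read 5′ to 3′ on the gene's own strand. Capitals mark matches to 6 motifs searched on both strands, namely the cAMP response element TGACGTCA and its core TGACG, which lies inside it, the FOXO insulin response sequence CAAAACA, the E-box CACGTG, the C/EBP palindrome TTGCGCAA and the TATA box TATAAA.
Pck1, chr2:173152823-173153122 on the plus strand: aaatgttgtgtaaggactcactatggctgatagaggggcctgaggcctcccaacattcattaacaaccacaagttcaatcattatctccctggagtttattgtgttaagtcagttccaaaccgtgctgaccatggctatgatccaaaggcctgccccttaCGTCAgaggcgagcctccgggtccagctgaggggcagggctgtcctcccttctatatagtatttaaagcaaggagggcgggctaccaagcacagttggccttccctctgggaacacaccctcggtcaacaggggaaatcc
G6pc, chr11:101367466-101367765 on the plus strand: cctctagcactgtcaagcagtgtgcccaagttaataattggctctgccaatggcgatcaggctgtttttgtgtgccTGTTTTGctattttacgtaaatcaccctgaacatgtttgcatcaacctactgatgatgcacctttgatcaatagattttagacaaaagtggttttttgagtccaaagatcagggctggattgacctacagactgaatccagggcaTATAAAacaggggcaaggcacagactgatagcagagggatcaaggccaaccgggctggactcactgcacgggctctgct
Fbp1, chr13:62888233-62888532 on the minus strand: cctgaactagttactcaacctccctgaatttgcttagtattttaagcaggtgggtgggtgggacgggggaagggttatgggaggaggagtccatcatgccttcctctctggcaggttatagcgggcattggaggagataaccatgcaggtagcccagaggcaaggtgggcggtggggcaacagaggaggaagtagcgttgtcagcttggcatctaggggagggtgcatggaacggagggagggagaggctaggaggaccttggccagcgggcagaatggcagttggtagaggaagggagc
Pklr, second window, chr3:89136373-89136672 on the plus strand: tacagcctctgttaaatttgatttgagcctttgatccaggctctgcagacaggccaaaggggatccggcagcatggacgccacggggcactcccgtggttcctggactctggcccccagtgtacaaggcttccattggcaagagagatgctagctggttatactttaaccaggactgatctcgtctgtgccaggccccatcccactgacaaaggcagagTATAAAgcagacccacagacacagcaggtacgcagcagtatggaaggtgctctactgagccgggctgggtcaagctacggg

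The Pck1 window held TGACG on its minus strand, at -90 to -86 from the start, and no other of the 6 motifs. The G6pc window held CAAAACA on its minus strand, at -174 to -168 from the start, and TATAAA at -29 to -24. The second Pklr window held TATAAA at -31 to -26 from its own start, and the Fbp1 window and the first Pklr window held none of these letters. Of the 32851 promoter windows of this length, 20.8% held TGACG, 6.28% CAAAACA, 7.15% CACGTG, 13.6% TATAAA, 1.79% TGACGTCA and 0.183% TTGCGCAA. Of the 8 genes with a window, 3 held TGACG (Pck1, Ppargc1a and Irs1), 3 held CAAAACA (G6pc, Irs1 and Irs2), 2 held CACGTG (Irs1 and Irs2), and none held TGACGTCA or TTGCGCAA. In the Irs1 window the E-box match overlaps both the TGACG match and 1 of the 2 FOXO matches. A match is a run of letters and not a measured site.

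Ppargc1a encodes PGC-1alpha, a coactivator induced in fasted liver that raises Pck1 and G6pc, and it rose with ligation in the knockout. Ppargc1a (ENSMUSG00000029167.13, chromosome 5, 51454250 to 51567726, minus strand) measured 2.23, 2.18, 3.12, 2.04 and 2.40 FPKM in the ligated knockout livers. It measured 1.58, 2.27, 1.71, 2.48 and 1.59 FPKM in the ligated wild-type livers. The 5 ligated knockout values were all above 2 FPKM, and 3 of the ligated wild-type values were below all of them. Ppargc1a measured 1.23, 1.40, 1.39, 1.46 and 1.21 FPKM in the sham knockout livers. It measured 1.13, 1.49, 2.56, 2.61 and 2.70 FPKM in the sham wild-type livers. The sham knockout livers were low and close together, and all lay below all ligated knockout livers, while the sham wild-type livers fell into 2 low values, both in libraries with Y-linked transcripts, and 3 high values, all in libraries without them. The ligation difference was 0.64 ± 0.17 in the knockout (limma adjusted p = 0.0103), 1.56-fold, and -0.06 ± 0.17 in wild type (95% interval -0.42 to 0.29, limma adjusted p = 0.803). Between genotypes it was 0.26 ± 0.17 after ligation (limma adjusted p = 0.378) and -0.45 ± 0.17 after sham surgery (limma adjusted p = 0.174). Without Sham_Wt_2223 the sham difference was -0.60 and passed (limma adjusted p = 0.0391), as it did with array weights (-0.54, adjusted p = 0.0419). The sham difference was 0.03 in libraries with Y-linked transcripts (limma adjusted p = 0.975) and -0.77 in those without (adjusted p = 0.27). The rise in the knockout was 0.56 in libraries with Y-linked transcripts (limma adjusted p = 0.0739) and 0.70 in those without (adjusted p = 0.0881), and 0.56 without BDL_KO_2359 and BDL_KO_2248 (limma adjusted p = 0.0324).

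Pklr, the liver form of pyruvate kinase and the last enzyme of glycolysis, fell with ligation in wild type and was higher in ligated knockout than in ligated wild-type livers. Pklr (ENSMUSG00000041237.12, chromosome 3, 89136142 to 89146784, plus strand) measured 41.8, 34.8, 30.8, 38 and 75.8 FPKM in the ligated knockout livers. It measured 22.7, 21.4, 23.0, 21 and 21.7 FPKM in the ligated wild-type livers. The ligated wild-type values lay within about 2 FPKM of each other, and every ligated knockout liver was above them, with BDL_KO_2371 far above the other 4. Pklr measured 66.7, 88.1, 73.4, 55.8 and 36.7 FPKM in the sham knockout livers. It measured 59.7, 70.1, 45.4, 69.1 and 66.7 FPKM in the sham wild-type livers. The sham groups overlapped, the sham knockout livers reached down to ligated knockout levels in Sham_KO_2353, and every sham liver lay above the ligated wild-type values. The ligation difference was -0.55 ± 0.22 in the knockout (limma adjusted p = 0.0772) and -1.47 ± 0.22 in wild type (limma adjusted p = 6e-05). Between genotypes it was 0.92 ± 0.22 after ligation, 1.89-fold (limma adjusted p = 0.0147), and 0.00 ± 0.22 after sham surgery (95% interval -0.46 to 0.47, limma adjusted p = 0.997). Without BDL_KO_2371 the difference between ligated genotypes was 0.71, still called, and the fall in the knockout was called at -0.76 (limma adjusted p = 0.00772). The genotype difference after ligation did not pass as TPM, that is with every library scaled to the same sum of values (0.64, limma adjusted p = 0.0792), scaled to total fragments (0.71, 0.067) or with only the ligated groups in the fit (limma adjusted p = 0.0541). It was 0.76 in libraries with Y-linked transcripts (limma adjusted p = 0.0502) and 1.05 in those without (adjusted p = 0.459). The ligation difference in the knockout was -0.98 in libraries with Y-linked transcripts (limma adjusted p = 0.00883) and -0.02 in those without (adjusted p = 0.984), and the fall in wild type was -1.51 in libraries with Y-linked transcripts (limma adjusted p = 0.000608) and -1.46 in those without (adjusted p = 0.0552). Pklr shares 711 exonic bases, 22.0% of its exonic length, with the antisense gene Hcn3, which averaged 2.33 FPKM, and the labels do not state whether the counting used strand.

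Slc2a2 encodes GLUT2, the carrier through which glucose enters and leaves hepatocytes, and it rose with ligation in the knockout. Slc2a2 (ENSMUSG00000027690.13, chromosome 3, 28697903 to 28731359, plus strand) measured 98.7, 65.3, 65.0, 72.9 and 67.4 FPKM in the ligated knockout livers. It measured 50.1, 84.2, 31.3, 104 and 43.5 FPKM in the ligated wild-type livers. Of the ligated wild-type livers 2 were high and 3 low, and they overlapped the ligated knockout values. Slc2a2 measured 44.9, 44.4, 49.5, 41.4 and 31.6 FPKM in the sham knockout livers. It measured 62.4, 61.0, 58.2, 55.7 and 56.1 FPKM in the sham wild-type livers. All sham knockout livers lay below all sham wild-type and all ligated knockout livers, and the sham wild-type values were close together. The ligation difference was 0.79 ± 0.24 in the knockout (limma adjusted p = 0.02), 1.73-fold, and -0.04 ± 0.24 in wild type (95% interval -0.53 to 0.45, limma adjusted p = 0.914). Between genotypes it was 0.35 ± 0.24 after ligation (limma adjusted p = 0.386) and -0.48 ± 0.24 after sham surgery (limma adjusted p = 0.303). With only the sham groups in the fit the sham difference passed (limma adjusted p = 0.0345). The rise in the knockout did not pass without Sham_KO_2353 (limma adjusted p = 0.0531) or without BDL_KO_2359 and BDL_KO_2248 (0.70, limma adjusted p = 0.0516), and was 0.79 in libraries with Y-linked transcripts (limma adjusted p = 0.216) and 0.91 in those without (adjusted p = 0.135).

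Of the genes that carry the insulin signal, Irs1 fell with ligation in wild type. Neither Insr nor Irs2 passed in any comparison of the values as deposited over all 20 libraries. Irs1 (ENSMUSG00000055980.2, chromosome 1, 82233101 to 82291416, minus strand) measured 0.832, 1.25, 0.763, 1.39 and 0.979 FPKM in the ligated knockout livers. It measured 0.869, 0.842, 0.838, 1.08 and 0.915 FPKM in the ligated wild-type livers. Both ligated groups lay near 1 FPKM and overlapped. Irs1 measured 1.2, 1.76, 1.08, 1.32 and 1.51 FPKM in the sham knockout livers. It measured 2.24, 1.99, 2.06, 1.71 and 1.2 FPKM in the sham wild-type livers. The sham groups overlapped, and all sham wild-type livers lay above all ligated wild-type livers. The ligation difference was -0.29 ± 0.14 in the knockout (limma adjusted p = 0.144) and -0.72 ± 0.14 in wild type (limma adjusted p = 0.000615). At this level the added 0.5 FPKM understates the change, and on recovered fragments voom gave -0.96 in wild type (adjusted p = 0.000538). The fall in wild type was -0.95 in libraries with Y-linked transcripts (limma adjusted p = 0.00898) and -0.51 in those without (adjusted p = 0.211). Between genotypes Irs1 differed by 0.12 ± 0.14 after ligation and -0.31 ± 0.14 after sham surgery (limma adjusted p = 0.663 and 0.25 in that order). Irs1 shares 30.9% of its exonic length with the antisense gene Gm9747, which is listed at 0.

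Irs2, the substrate that fasting raises and insulin lowers in liver, varied widely between livers of the same group. Irs2 (ENSMUSG00000038894.7, chromosome 8, 10984681 to 11008458, minus strand) measured 4.08, 5.42, 9.59, 5.13 and 5.31 FPKM in the ligated knockout livers. It measured 5.44, 4.55, 4.50, 4.90 and 5.09 FPKM in the ligated wild-type livers. The ligated wild-type values were close together, and BDL_KO_2248 stood above the other ligated knockout livers. Irs2 measured 7.86, 14.0, 10.2, 4.87 and 3.51 FPKM in the sham knockout livers. It measured 6.32, 5.53, 7.93, 9.30 and 1.33 FPKM in the sham wild-type livers. The sham groups spread over a wide range, from the lowest value of all in Sham_Wt_2229 to the highest in Sham_KO_2349. Ligation differences were -0.33 ± 0.38 in the knockout (95% interval -1.12 to 0.47) and -0.09 ± 0.38 in wild type (-0.88 to 0.70), with limma adjusted p = 0.563 and 0.878 in that order. Knockout differences were 0.20 ± 0.38 after ligation and 0.43 ± 0.38 after sham surgery (limma adjusted p = 0.803 and 0.603 in that order). The ligation difference in the knockout was -1.06 in libraries with Y-linked transcripts (limma adjusted p = 0.0224) and 0.57 in those without (adjusted p = 0.638). Sham_Wt_2229, low for Irs2, was also the lowest sham wild-type liver for G6pc and Irs1.

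Insr, the insulin receptor gene (ENSMUSG00000005534.10, chromosome 8, 3122061 to 3279617, minus strand), measured 13.1, 8.87, 18.1, 9.48 and 11.4 FPKM in the ligated knockout livers. It measured 11.6, 12.9, 11.3, 12.6 and 8.83 FPKM in the ligated wild-type livers. BDL_KO_2248 was the highest, and the groups overlapped. Insr measured 10.1, 11.5, 11.7, 11.4 and 10.7 FPKM in the sham knockout livers and 9.97, 12.2, 10.8, 12.5 and 10.3 FPKM in the sham wild-type livers. Ligation differences were 0.09 ± 0.15 in the knockout (95% interval -0.22 to 0.39) and 0.03 ± 0.15 in wild type (-0.27 to 0.34), with limma adjusted p = 0.708 and 0.892 in that order. Knockout differences were 0.05 ± 0.15 after ligation (-0.25 to 0.36) and -0.00 ± 0.15 after sham surgery (-0.31 to 0.30), with limma adjusted p = 0.87 and 0.996 in that order. These intervals leave out a change of 1 log2 unit in either direction. As TPM, under which the median gene stood at 0.27 log2 units in this comparison, Insr passed as higher after ligation in wild type (0.35, limma adjusted p = 0.0369).

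Counted over the 9 genes, ligation in the knockout raised 2 (Ppargc1a and Slc2a2) and lowered none, beside 25.1% of all tested genes called in that comparison, 12.3% higher and 12.9% lower. Ligation in wild type lowered 4 (G6pc, Fbp1, Pklr and Irs1) and raised none, beside 35.6% called among all tested genes, 18.1% higher and 17.5% lower. The members' median was -0.19 log2 units in the knockout and -0.18 in wild type, beside -0.01 and -0.02 for all tested genes in the same order. The ligated livers lay wholly above the sham livers for 2 of the 9 genes in the knockout, beside 5.85% of all genes, and wholly below them for 4 in wild type, beside 15.1%. In the same livers hepatocyte markers fell in 5 of 15 cases and rose in 1 in the knockout, and fell in 6 and rose in 1 in wild type. Cholangiocyte markers rose in 6 of 8 tested in the knockout and 7 in wild type, and monocyte and macrophage markers in 4 and 8 of 10. The part of these cell markers in the values of the 9 genes was not tested.

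Between ligated genotypes 2 of the 9 genes were higher in the knockout (Fbp1 and Pklr) and none lower, beside 8.83% of all tested genes called, 3.46% higher and 5.37% lower. Pklr was the 1 gene whose groups did not overlap, beside 2.17% of all genes that were wholly higher. All 9 differences were positive, with a median of 0.26 log2 units beside 0.01 for all tested genes. Not all of these signs held without BDL_KO_2248, where Pck1 was at -0.10 and Insr at -0.097. As TPM the median over all tested genes was -0.25 in this comparison. Hepatocyte markers were higher in ligated knockout than in ligated wild-type livers for 5 of 15 and lower for none. Cholangiocyte markers were lower for 2 of 8 and monocyte and macrophage markers for 4 of 10. These counts include BDL_KO_2359 and BDL_KO_2248. In the other ligated knockout livers macrophage and monocyte sums were 334 to 453 FPKM, against 370 to 469 in ligated wild type. Their cholangiocyte sums were 337 to 565 against 227 to 613 FPKM, and their hepatocyte sums 35548 to 40537 against 27230 to 36793 FPKM. The part of these markers in the difference of the 9 genes was not tested. BDL_KO_2371, the liver with the highest G6pc, Fbp1 and Pklr of its group, had a hepatocyte marker deviation of -0.17. The summed level of 4 blood markers was 1252 FPKM in BDL_KO_2371, against 153 to 256 FPKM in the other ligated knockout livers, and its part in these 3 genes was not tested. After sham surgery limma called none of the 9 genes, beside 2.97% of all tested genes (1.31% higher, 1.66% lower), and 2 of the 9 (Ppargc1a and Irs1) had an unadjusted p under 0.05, beside 17.4% of all genes. Voom on recovered fragments also called none. Slc2a2 was the gene without overlap in the sham comparison, beside 4.58% of all genes that were wholly lower, and the members' median was -0.28, beside 0.01 for all tested genes.

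**Figure D2:**
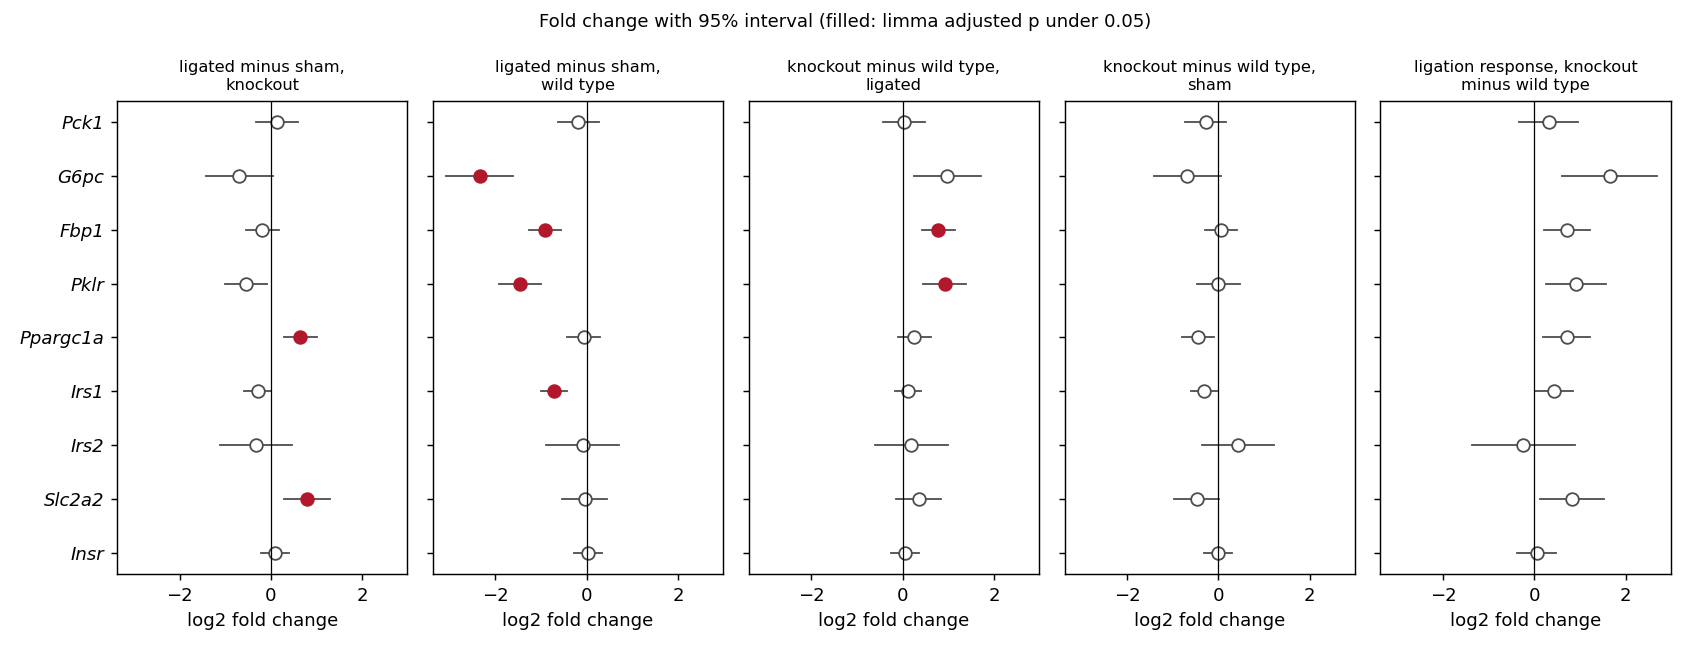
Log2 fold change of each gene (horizontal axis, difference of mean log2(FPKM + 0.5)) with its 95% interval in 5 comparisons, filled where the limma adjusted p was under 0.05. Ppargc1a and Slc2a2 are filled for ligation in the knockout, G6pc, Fbp1, Pklr and Irs1 for ligation in wild type, Fbp1 and Pklr for the knockout after ligation, and none for the other 2 comparisons.

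Whether the knockout altered the response to ligation was tested by the interaction, the ligation difference in the knockout minus that in wild type. Limma called none of the 9 genes, beside 0.377% of all tested genes, and 6 of the 9 had an unadjusted p under 0.05, beside 12.6% of all genes. The 9 genes were chosen with earlier results of these data known. Shares set beside all genes, here and in the other comparisons, are therefore no test of the 9 as a set. The interaction was 1.66 ± 0.50 log2 units for G6pc (unadjusted p = 0.00354, limma adjusted p = 0.165), 0.92 ± 0.31 for Pklr (adjusted p = 0.213) and 0.72 ± 0.24 for Fbp1 (adjusted p = 0.204). It was 0.83 ± 0.33 for Slc2a2 (limma adjusted p = 0.29), 0.71 ± 0.24 for Ppargc1a (adjusted p = 0.212) and 0.43 ± 0.20 for Irs1 (adjusted p = 0.376). For Pck1, Irs2 and Insr it was 0.31 ± 0.31, -0.24 ± 0.54 and 0.05 ± 0.21. The signs were positive for 8 of 9 genes, with a median of 0.71 beside -0.00 for all tested genes. Without BDL_KO_2248 the interaction of Insr was -0.09. None of the 9 passed without any 1 of the 20 libraries or by voom. A gene called with ligation in 1 genotype and not in the other is therefore not shown to respond differently. The 5 comparisons share libraries, so their values are given side by side and not as independent results.

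Per transcript length, the mean level over 20 libraries placed Pck1 above 99.5% of tested genes and Irs1, the lowest of the 9, above 26.5%. In each group Pck1 and Fbp1 came first, then G6pc, Slc2a2 and Pklr in varying order, then Insr and Irs2, with Ppargc1a and Irs1 last. In ligated knockout livers Pck1 averaged 742 ± 182 FPKM and Fbp1 518 ± 154 (SD, n = 5), within their SDs of each other, and Pck1 was the higher in 5 of 5 livers. In ligated wild-type livers Pck1 averaged 720.4 ± 142 and Fbp1 293 ± 42.9, separated by more than the SDs. G6pc ranked 3 in ligated knockout (131 ± 81.2), sham knockout (208 ± 99.0) and sham wild-type livers (318 ± 99.5) and 4 in ligated wild-type livers (60.3 ± 13.5), where Slc2a2 averaged 62.6 ± 30.2 and was the higher of the 2 in 3 of 5 livers. The means of Pklr and Slc2a2 lay within their SDs of each other in ligated knockout, sham knockout and sham wild-type livers. Within livers Slc2a2 was the higher in 4 of 5 ligated knockout livers, and Pklr was the higher in 5 of 5 sham knockout and 3 of 5 sham wild-type livers. Ppargc1a ranked above Irs1 in 3 groups, with 2.39 ± 0.426 against 1.04 ± 0.27 FPKM in ligated knockout livers, and below it in sham knockout livers, where the 2 did not differ beyond their spread (1.34 ± 0.112 and 1.37 ± 0.27).

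As a description over 20 libraries that share depth and cell composition, Pearson correlations between the 9 genes, of deviations from the group mean, ranged from -0.44 (Ppargc1a with Irs1) to 0.65 (G6pc with Pklr). Fbp1 with Insr had 0.59, Pck1 with Fbp1 0.58 and G6pc with Irs2 0.57. Among tested genes averaging 5 FPKM or more, the most alike to Irs2 was Igfbp1, which encodes a secreted binding protein that insulin represses in liver, at 0.80. The most alike to Ppargc1a were Got1, a transaminase gene, at 0.83 and Lpin1, a phosphatidate phosphatase gene, at 0.80. Pklr was closest to Uchl5 at 0.86 and to the enolase gene Eno1 at 0.78, G6pc to Pcmtd2 at 0.81 and Fbp1 to F13b at 0.84. Pck1 was closest to Slc25a47 at 0.76, Slc2a2 to Adssl1 at 0.81, Insr to Ist1 at 0.91 and Irs1 to Efnb1 at 0.78.

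**Figure D3:**
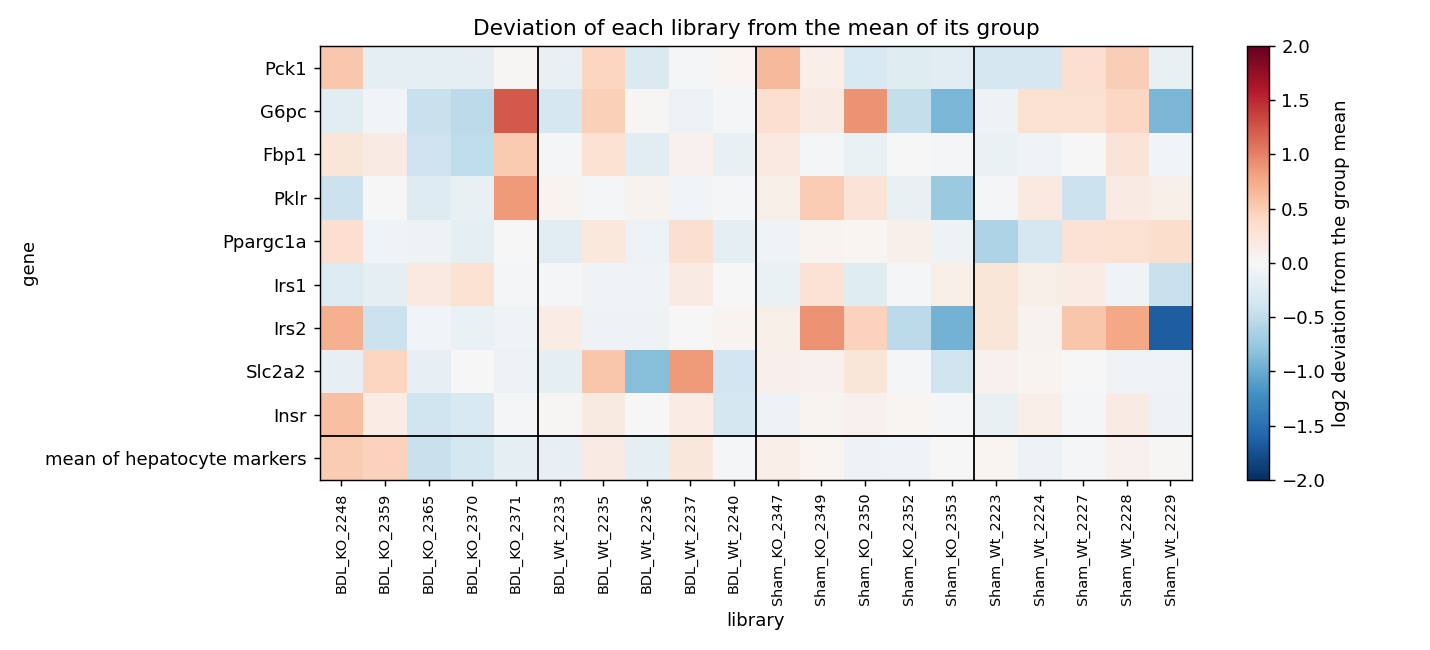
Deviation of each library (horizontal axis) from the mean log2(FPKM + 0.5) of its group for the 9 genes and for the mean of 15 hepatocyte markers (rows), in log2 units by colour. BDL_KO_2371 is high for G6pc, Fbp1 and Pklr with a marker deviation of -0.17, and Sham_Wt_2229 is low for Irs2 and G6pc.

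The other genes of the pathways were described through 11 lists, with the 9 genes left out. Over all tested genes, ligation in the knockout called 12.3% higher and 12.9% lower, and ligation in wild type 18.1% and 17.5%. The knockout after ligation called 3.46% higher and 5.37% lower, the knockout after sham surgery 1.31% and 1.66%, and the interaction 0.377%. The list counts below are to be read beside these shares. In gluconeogenesis, 2 of 11 tested genes fell with ligation in the knockout and none rose, and 3 fell and 2 rose in wild type, with list medians of -0.01 and -0.26 in that order. Without BDL_KO_2359 and BDL_KO_2248, 3 fell and 1 rose in the knockout. Mpc2, a subunit of the mitochondrial pyruvate carrier, averaged 18.9 ± 3.45 FPKM in ligated knockout, 12.7 ± 2.01 in ligated wild-type, 29.7 ± 6.25 in sham knockout and 26.8 ± 5.43 in sham wild-type livers (SD, n = 5). It fell by 0.63 ± 0.16 log2 units with ligation in the knockout and by 1.04 ± 0.16 in wild type. Mdh1, the cytosolic malate dehydrogenase of the same route, fell in wild type (-0.79 ± 0.15) and was higher in ligated knockout than in ligated wild type (0.68 ± 0.15), which was not called as TPM. In glycolysis, 2 of 23 rose in the knockout (5 rose and 1 fell without those libraries), and 4 rose and 3 fell in wild type. Hk2, a hexokinase scarce in hepatocytes, rose by 0.65 ± 0.17 and 0.93 ± 0.17, and Pkm, the pyruvate kinase of most other tissues, rose by 1.00 ± 0.30 and 1.11 ± 0.30, in knockout and wild type in that order. Macrophage and cholangiocyte markers rose in the same livers, and their part in Hk2 and Pkm was not tested. Between ligated genotypes 5 glycolysis genes were higher in the knockout, among them the phosphoglycerate kinase gene Pgk1 (0.63 ± 0.13), and 2 lower, and without BDL_KO_2359 and BDL_KO_2248 these counts were 5 and 0.

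Genes of pyruvate oxidation and of glycogen were called in both genotypes. Of 9 genes of pyruvate dehydrogenase and its kinases, 3 fell and 2 rose with ligation in the knockout, and 5 fell and 2 rose in wild type. Pdhb, a subunit of the enzyme, changed by -0.51 ± 0.13 in the knockout and -0.96 ± 0.13 in wild type. Of its 2 phosphatase genes, Pdp1 changed by 0.55 ± 0.14 and 1.03 ± 0.14 and Pdp2 by -0.78 ± 0.18 and -1.08 ± 0.18, in the same order. Group means were 0.279 to 1.10 FPKM for Pdp1 and 3.45 to 9.36 FPKM for Pdp2. Pdk1, a kinase that inhibits the enzyme, fell in wild type (-1.35 ± 0.21), did not pass in the knockout (-0.50 ± 0.21) and was higher in ligated knockout livers (0.99 ± 0.21). Of 15 glycogen genes, 4 fell and 5 rose in the knockout, and 8 fell and 2 rose in wild type. Gys2, the liver glycogen synthase, measured 31.0 ± 6.88 FPKM in ligated knockout, 23.6 ± 5.85 in ligated wild-type, 43.6 ± 8.38 in sham knockout and 46.8 ± 6.29 in sham wild-type livers. Its differences were -0.49 ± 0.18 in the knockout and -0.99 ± 0.18 in wild type, and the first was not called as TPM. Pygl, the liver glycogen phosphorylase, changed by -0.51 ± 0.13 and -1.10 ± 0.13, and Ppp1r3c, a targeting subunit that brings a phosphatase to glycogen, by -1.88 ± 0.47 and -1.54 ± 0.47, in the same order. Among the glycogen genes that rose, Pgm1 changed by 0.99 ± 0.14 in the knockout and 1.035 ± 0.14 in wild type. Its group means were low, at 1.44 to 4.36 FPKM. Pgm2, of the same list, had group means of 57.4 to 77.6 FPKM. It fell in wild type (-0.41 ± 0.13) and did not pass in the knockout (-0.02 ± 0.13). Gbe1 rose in the knockout (0.59 ± 0.14) and did not pass in wild type (0.01 ± 0.14). No gene of the glycogen list was called by the interaction test.

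Downstream of the insulin receptor, 3 of 18 other genes rose and 2 fell with ligation in the knockout, and 3 rose and 4 fell in wild type, all by less than 1 log2 unit. Foxo3, a forkhead factor that Akt holds out of the nucleus, rose by 0.52 ± 0.12 and 0.36 ± 0.12, and Gsk3b, a kinase that Akt inhibits, by 0.34 ± 0.11 and 0.50 ± 0.11. Foxo1 measured 5.19 ± 1.86 FPKM in ligated knockout, 4.12 ± 0.661 in ligated wild-type, 5.22 ± 0.457 in sham knockout and 4.07 ± 0.774 in sham wild-type livers, with ligation differences of -0.06 ± 0.16 and 0.02 ± 0.16 that did not pass. Akt2, the main hepatic form of the kinase, fell in wild type (-0.33 ± 0.09), but as TPM it was -0.02. No gene of this list differed between ligated genotypes. Of 16 brakes on insulin signalling, 3 rose and 1 fell in the knockout (5 and 0 without BDL_KO_2359 and BDL_KO_2248), and 7 rose and none fell in wild type. Socs3, which cytokines induce and which marks insulin receptor substrates for degradation, averaged 19.5 ± 21.5 FPKM in ligated knockout, 15.8 ± 5.03 in ligated wild-type, 3.52 ± 0.861 in sham knockout and 4.21 ± 2.51 in sham wild-type livers, and rose by 1.82 ± 0.46 and 1.89 ± 0.46. Ptpn1, the phosphatase that dephosphorylates the receptor, rose by 0.59 ± 0.12 and 0.79 ± 0.12. Socs1 measured 0.295 ± 0.111 FPKM in ligated knockout and 1.46 ± 0.761 in ligated wild-type livers, a difference of -1.21 ± 0.22 (limma adjusted p = 0.00185). It rose with ligation in wild type (0.87 ± 0.22), was 0.06 ± 0.22 in the knockout, and is also expressed by immune cells. Prkcd was lower in the ligated knockout (-0.77 ± 0.18), which did not pass without BDL_KO_2359 and BDL_KO_2248 (-0.42, limma adjusted p = 0.0553).

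Of 20 genes of glucagon and fasting transcription, 4 fell and 2 rose with ligation in the knockout (6 and 1 without BDL_KO_2359 and BDL_KO_2248), and 6 fell and 1 rose in wild type. Ppara, the fatty acid receptor of fasted liver, fell by 0.89 ± 0.20 and 1.07 ± 0.20, and Cebpa, a factor needed for gluconeogenic genes, by 0.77 ± 0.18 and 0.93 ± 0.18. The glucagon receptor gene Gcgr changed by -0.42 ± 0.15 and -0.65 ± 0.15, and neither call held as TPM. Sik1, a kinase that cAMP induces and that restrains gluconeogenic transcription, rose by 1.39 ± 0.30 and 1.27 ± 0.30. Igfbp1 averaged 255 ± 218 FPKM in ligated knockout, 182 ± 45.5 in ligated wild-type, 64.3 ± 48.7 in sham knockout and 114 ± 94.3 in sham wild-type livers. Its rise passed in the knockout (2.16 ± 0.64), not in wild type (1.05 ± 0.64), and not in the knockout without BDL_KO_2359 and BDL_KO_2248 (1.62, limma adjusted p = 0.0842). No gene of this list was called between genotypes or by the interaction.

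Genes that carbohydrate and insulin induce in liver, the company of Pklr, included 3 of the 5 list genes called by the interaction test. Pfkm, a phosphofructokinase of glycolysis, and Dlat, a subunit of pyruvate dehydrogenase, were the other two, with interactions of 0.70 ± 0.14 and 0.84 ± 0.16 (limma adjusted p = 0.0351 and 0.0342), and neither passed as TPM (adjusted p = 0.36 and 0.316). With ligation Pfkm differed by -0.23 ± 0.10 in the knockout, which did not pass, and fell by 0.93 ± 0.10 in wild type. The differences of Dlat were 0.07 ± 0.11 in the knockout, which did not pass, and -0.77 ± 0.11 in wild type, which did. Of the 12 carbohydrate-induced genes, 4 rose and 2 fell with ligation in the knockout, and none rose and 4 fell in wild type, with list medians of 0.54 and -0.29 in that order. Mlxipl, which encodes the glucose-responsive factor ChREBP, averaged 34.6 ± 13.7 FPKM in ligated knockout, 21.1 ± 3.57 in ligated wild-type, 69.8 ± 14.3 in sham knockout and 71.7 ± 11.9 in sham wild-type livers, and changed by -1.06 ± 0.21 and -1.74 ± 0.21 with ligation. Khk, the kinase that traps fructose, changed by -0.60 ± 0.21 and -1.39 ± 0.21. Srebf1, the insulin-responsive activator of lipid synthesis, measured 48.5 ± 25.7 FPKM in ligated knockout, 18.4 ± 4.16 in ligated wild-type, 16.0 ± 3.43 in sham knockout and 41.0 ± 14.8 in sham wild-type livers. It rose with ligation in the knockout (1.45 ± 0.29) and fell in wild type (-1.09 ± 0.29), with an interaction of 2.54 ± 0.42 (limma adjusted p = 0.0171). This interaction also contains the difference between the sham genotypes, with means of 16.0 FPKM in the knockout and 41.0 FPKM in wild type. The fatty acid synthesis genes Fasn and Acaca had interactions of 1.83 ± 0.28 and 1.12 ± 0.17 (limma adjusted p = 0.0119 and 0.0119), neither of which passed as TPM (limma adjusted p = 0.0667 for Fasn). Between ligated genotypes 5 of the 12 were higher in the knockout and none lower, beside 3.46% higher and 5.37% lower among all tested genes. The list median was 0.86, beside 0.01 for all tested genes. Pklr itself had an interaction of 0.92 ± 0.31 that did not pass.

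**Figure D4:**
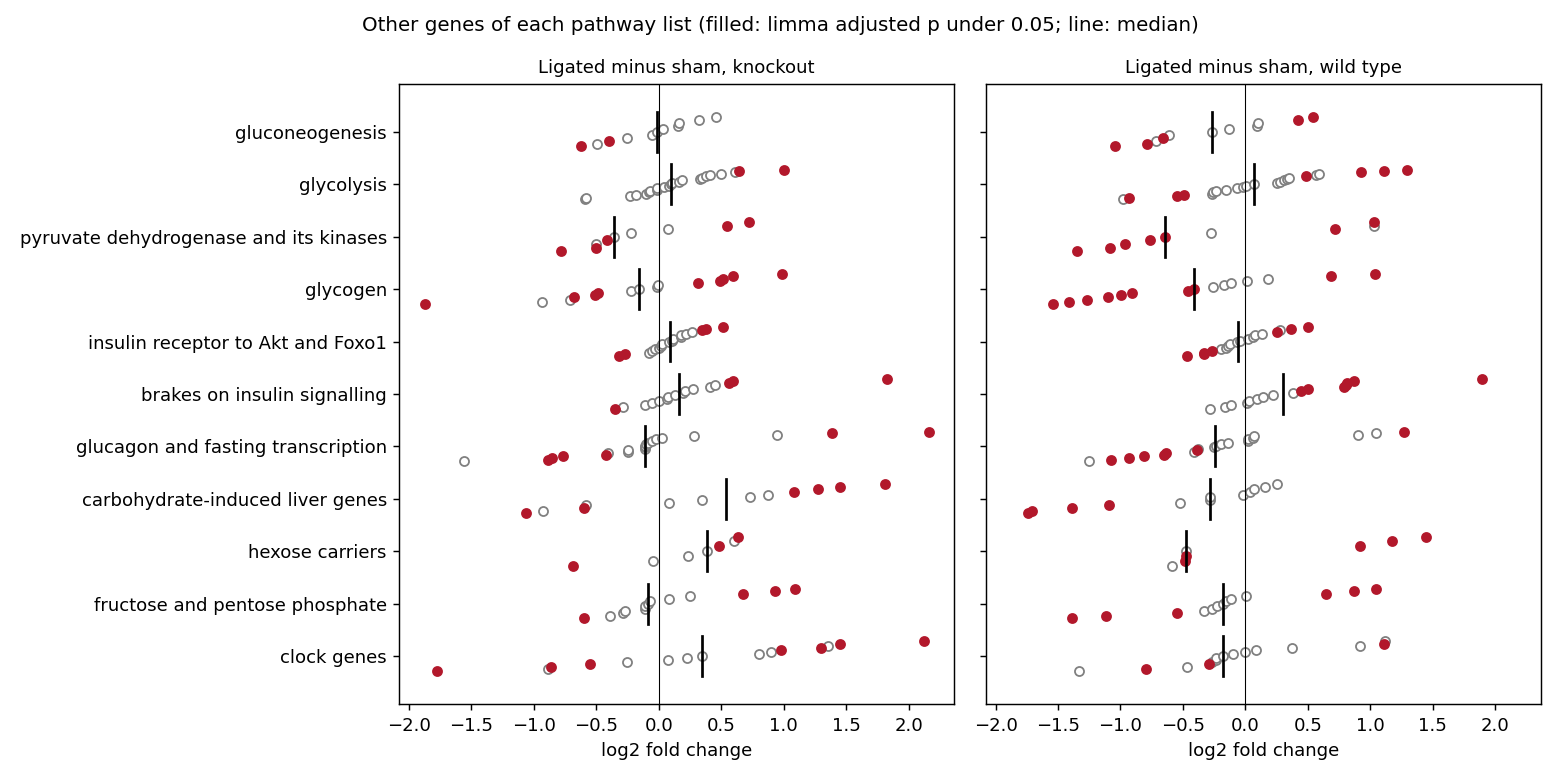
Log2 fold change with ligation (horizontal axis) of each other gene in 11 lists (rows), for the knockout and for wild type, filled where the limma adjusted p was under 0.05, with a line at the list median. The median of the carbohydrate-induced genes is 0.54 in the knockout and -0.29 in wild type, and that of the brakes on insulin signalling is 0.16 and 0.30.

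Among carriers of hexoses and of lactate, 2 of 7 tested genes rose and 1 fell with ligation in the knockout (2 and 0 without BDL_KO_2359 and BDL_KO_2248), and 3 rose and 2 fell in wild type. Slc2a1, the carrier GLUT1 of many non-hepatocyte cells, measured 5.16 ± 0.923 FPKM in ligated knockout, 5.80 ± 0.974 in ligated wild-type, 3.90 ± 1.14 in sham knockout and 2.93 ± 1.08 in sham wild-type livers, and its rise passed in wild type (0.92 ± 0.20) and not in the knockout (0.39 ± 0.20). Its group means in FPKM lay below those of Slc2a2 in all 4 groups. Slc2a9, a urate and hexose carrier, was lower in the sham knockout livers than in wild type (-0.65 ± 0.17). Slc2a3, Slc2a4, Slc2a10, Slc2a12 and Slc2a13 did not pass the filter. Of 13 genes of fructose use and the pentose phosphate pathway, 3 rose and 1 fell in the knockout, and 3 rose and 3 fell in wild type. Pgd, a dehydrogenase of the pentose phosphate pathway, rose by 1.09 ± 0.18 and 1.05 ± 0.18, and Akr1b3, an aldose reductase, by 0.93 ± 0.16 and 0.87 ± 0.16. Sord, the sorbitol dehydrogenase, fell in wild type (-1.12 ± 0.23) and did not pass in the knockout (-0.39 ± 0.23). Between ligated genotypes 5 of the 13 were higher in the knockout and none lower, beside 3.46% higher and 5.37% lower among all tested genes. Of the 13, 2 were higher without BDL_KO_2359 and BDL_KO_2248.

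Several of the 9 genes are known to follow the daily clock, and of 15 clock genes 3 were called between the sham genotypes, beside 2.97% of all tested genes. Nr1d2, a clock repressor, measured 3.72 ± 0.987 FPKM in sham knockout and 13.2 ± 2.93 in sham wild-type livers (-1.70 ± 0.33). Cry1, another repressor, measured 10.3 ± 2.91 and 3.32 ± 1.36 FPKM in the same order (1.51 ± 0.35, not called as TPM). With ligation 4 of the 15 rose and 3 fell in the knockout, or none and 3 without BDL_KO_2359 and BDL_KO_2248, and 1 rose and 2 fell in wild type. The part of the hour of collection in the values of the 9 genes was not tested. Over all 11 lists 154 other genes were tested. Of the 52 called with ligation in the knockout 38 were also called as TPM, and of the 66 called in wild type 48 were, while 1 (Gsk3a) took the opposite sign. Of the 26 called between ligated genotypes 13 were also called as TPM and 26 by voom. As TPM the median log2 difference over all tested genes was 0.15 for ligation in the knockout, 0.27 in wild type, -0.25 for the knockout after ligation and -0.12 after sham surgery, against -0.01, -0.02, 0.01 and 0.01 as deposited, in the same order. Under it and under scaling to total fragments the called members kept their sign. Genes called as higher made up 48.8% as deposited and 75.9% as TPM in the knockout, 50.8% and 82.0% in wild type, 39.2% and 6.73% for the knockout after ligation, and 44.0% and 9.52% after sham surgery.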

How the data were processed

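Polyadenylated RNA of mouse liver was sequenced as 20 libraries, grouped by their titles. FPKM values, computed and deposited by the authors, filled 1 table of 54532 rows, in which 105 gene names repeat. Per the submitters' processing notes the tools, without role or order, were fastp, DESeq2 1.20.0, featureCounts 1.5.0-p3, HISAT2 2.0.5 and CASAVA 1.8, and the builds GRCm38 and mm10; the annotation release was not stated there. With exonic lengths from GENCODE M21, 98.15 to 98.5% of low values (under 20 fragments, tolerance 0.02) were whole multiples of 1 fragment in each library, which gave depths of 14.9 to 20.9 M fragments. The library size implied by these steps differed from the recovered total (15.3 and 16.1 M in Sham_Wt_2223), so the deposited FPKM values carry a scaling beyond total fragments. The implied size was well below the total in BDL_KO_2248 (13.6 and 18.3 M) and BDL_KO_2359 (15.0 and 18.1 M). It was above the total in the other ligated knockout libraries and in every ligated wild-type library (21.4 and 18.6 M in BDL_Wt_2236). A lower implied size gives higher FPKM values.

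The 14059 genes that reached 0.5 FPKM in 5 or more libraries were tested on log2(FPKM + 0.5) with limma 3.58.1 (R 4.3.3), in 1 model with a mean per group, trend and robust moderation, and Benjamini-Hochberg adjustment over all 14059 genes at 0.05. A fold change on this scale understates that of low genes. Contrasts were ligated minus sham in each genotype, knockout minus wild type after each surgery, and their interaction. The fit was tested on simulated data. Python 3.11.15, pandas 2.3.3, numpy 2.4.6 and matplotlib 3.10.9 were used for tables and figures.

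The 9 genes, the pathway and marker lists and the tests were chosen with earlier results of these data known. By rule the text names the 9 genes, Tmem173, up to 4 called genes of each list and comparison with the smallest p (or the 2 most abundant where fewer than 2 were called), and up to 2 genes with a mean of 5 FPKM or more most alike to each of the 9, by Pearson correlation of deviations from the group mean. Foxo1 and Gcgr fall outside it and were chosen after their values were seen. Alternatives were pseudocounts of 0.1 and 1 FPKM, no filter or 1 FPKM, TPM, quantile normalization, no robust moderation, array weights, only the groups compared, and each library left out. Voom on recovered fragments, scaling to total fragments, a term for libraries with Y-linked transcripts, each such type alone, and leaving out BDL_KO_2359 with BDL_KO_2248 were added after seeing the data. Abcb4 mice, named in the series' design, were not analysed here. Promoter windows came from RefSeq (GRCm38.p6), and Insr was not among the 8 genes matched.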

Additional observations from a re-analysis of the deposited data

Results flagged for a closer look

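In 40 sets of 5 livers, 1 set for each gene and group, 5 had a liver separated from its group by more than Dixon's 95% critical value of 0.71 (gap to the next liver over the range), and chance flags about 1 in 20 sets. All 5 were the highest liver of the ligated knockout group. BDL_KO_2371 had 275 FPKM of G6pc, next to 113 FPKM, and 75.8 FPKM of Pklr, next to 41.8 FPKM. BDL_KO_2248 had 1058 FPKM of Pck1, next to 739.8 FPKM, and 9.59 FPKM of Irs2, next to 5.42 FPKM. BDL_KO_2359 had 98.7 FPKM of Slc2a2, next to 72.9 FPKM.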

How the results depend on the processing

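Ligation in the knockout called 2 of the 9 genes, both higher, with 2 to 4 when 1 library was left out, 0 in libraries without Y-linked transcripts and 1 without BDL_KO_2359 and BDL_KO_2248. In libraries with Y-linked transcripts it called 3, all lower (G6pc, Pklr and Irs2). Without BDL_KO_2371 the 4 were 2 higher and 2 lower, and without Sham_KO_2353 the 2 were 1 higher and 1 lower. Ligation in wild type called 4, with 4 in each leave-one-out fit and 1 in libraries without Y-linked transcripts. The knockout after ligation called 2, with 1 as TPM, by quantile normalization and by total fragments, 0 with only the groups compared, 0 in libraries with and 0 in those without Y-linked transcripts, and 2 in each leave-one-out fit. The knockout after sham surgery called 0, with 1 by array weights (Ppargc1a), 1 with only the groups compared (Slc2a2) and 0 to 1 leaving out 1 library (Ppargc1a, without Sham_Wt_2223). The causes were not tested, except that fits within a library type hold fewer samples. No called value changed sign. No paired analysis was possible because the library numbers are not shared between groups.

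Over all genes, the 5011 calls for ligation in wild type became 3126 in libraries with Y-linked transcripts and 911 in those without, and the 3534 in the knockout became 1694 with only the groups compared, 1072 and 550. The 1241 calls for the knockout after ligation became 283 with only the groups compared, 308 and 8 by library type, and 618 to 2061 leaving out 1 library. The 418 after sham surgery became 208 without a filter, 210 as TPM, 187 by total fragments, 821 with only the groups compared, 1234 with array weights, 0 and 7 by library type, and 155 to 341 leaving out 1. The 53 interaction calls became 9 without a filter, 7 as TPM, 21 by total fragments, 23 by voom, 142 with array weights, 2 and 0 by library type, 178 without BDL_KO_2359 and BDL_KO_2248, and 8 to 151 leaving out 1. Depth limited Irs1 and Ppargc1a most, with 95 and 113 fragments in their lowest libraries.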
